A study of Mus musculus with 6 samples.

Results

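The Clec2 genes form a cluster on chromosome 6 of the mouse and encode C-type lectin-like proteins of the cell surface, also called Clr proteins, which are ligands of the NKR-P1 (Klrb1) receptors of natural killer (NK) cells. Described here are Clec2d, Clec2e, Clec2f, Clec2g, Clec2h and Clec2i, while Clec2j, a further gene of the cluster, was not among the genes chosen. Their accessibility in the small intestinal crypt was followed through 15 of the 123510 peaks of an ATAC-seq series, an assay that reads open DNA through where a transposase can insert. The peaks were chosen by 2 criteria, namely that the authors had given the peak the name of 1 of these 6 genes (9 peaks), or that it carried no name and started within a fixed window of chromosome 6 that spans Clec2i and Clec2g (6 peaks, starting from 128802451 to 128994301). The family was selected on these data, with the KO against WT values of Clec2g known, so the levels and differences below are a description and carry no test of their own.

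Libraries were made from nuclei of whole crypts of C57BL/6 mice, 3 from wild type mice (WT) and 3 from mice in which Vil-Cre deletes floxed Smarcad1 (KO), and 50000 cells entered each library. Smarcad1 encodes a chromatin remodeler, and the comparison asked where accessibility changes when it is lost from the intestinal epithelium. The Vil1-cre transgene acts in the intestinal epithelium, so immune and stromal cells carried over with the crypts keep the gene, and the floxed line goes back to a single targeted embryonic stem cell clone. Neither the age of the animals nor whether the WT mice carried Cre or floxed alleles was given in the sources used here, and the labels do not state that each library came from a separate mouse, so the spread between libraries may be technical in part.

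NK cells and some T cells of the gut lining weigh activating against inhibitory signals when they meet an epithelial cell, and some Clr proteins supply part of the inhibitory side. Clec2d (Clr-b) is found on most cell types and is bound by the inhibitory receptor NKR-P1B, Clec2i (Clr-g) is bound by NKR-P1F, and Clec2h (Clr-f) is known from intestinal and kidney epithelium. Clec2e (Clr-a), Clec2f (Clr-c) and Clec2g (Clr-d) are less well described. An ATAC-seq peak reports open DNA and not RNA or protein, and a library of whole crypts averages over all its cells, so a change in the share of a cell type and a change within a cell type cannot be told apart.

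In the GENCODE vM21 annotation of GRCm38, the 6 genes lie in the order Clec2h, Clec2i, Clec2g, Clec2f, Clec2e and Clec2d over 524 kb, from 128662385 to 129186534. Clec2e is on the minus strand and the others are on the plus strand. Smarcad1 lies on the same chromosome, 63.5 Mb from the first Clec2 gene. Of the 6 genes, 4 had peaks of their name, with 1 for Clec2h, 3 for Clec2g, 3 for Clec2e and 2 for Clec2d. Clec2i and Clec2f had none.

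The promoters of the 4 genes with named peaks are shown because those of Clec2h and Clec2e are alike in sequence, while a peak covers the start of Clec2h and not that of Clec2e. Each run is the 300 bases around the RefSeq start of the gene in GRCm38.p6, 5′ to 3′ on the strand of the gene, at chr6:128662135-128662434 for Clec2h (plus), chr6:129100854-129101153 for Clec2e (minus), chr6:129180365-129180664 for Clec2d (plus) and chr6:128934131-128934430 for Clec2g (plus). Capitals mark matches on either strand to the motif letters given after the sequences.
Clec2h promoter: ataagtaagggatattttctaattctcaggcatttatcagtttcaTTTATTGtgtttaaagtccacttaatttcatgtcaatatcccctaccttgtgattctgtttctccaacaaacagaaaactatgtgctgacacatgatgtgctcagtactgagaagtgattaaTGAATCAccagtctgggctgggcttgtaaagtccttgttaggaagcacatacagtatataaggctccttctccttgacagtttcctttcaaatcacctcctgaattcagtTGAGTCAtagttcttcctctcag
Clec2e promoter: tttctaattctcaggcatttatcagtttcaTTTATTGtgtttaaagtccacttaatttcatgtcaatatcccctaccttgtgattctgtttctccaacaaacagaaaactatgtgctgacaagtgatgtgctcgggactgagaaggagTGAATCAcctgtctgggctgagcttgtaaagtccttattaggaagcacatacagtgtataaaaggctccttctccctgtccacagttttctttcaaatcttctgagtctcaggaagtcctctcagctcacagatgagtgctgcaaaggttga
Clec2d promoter: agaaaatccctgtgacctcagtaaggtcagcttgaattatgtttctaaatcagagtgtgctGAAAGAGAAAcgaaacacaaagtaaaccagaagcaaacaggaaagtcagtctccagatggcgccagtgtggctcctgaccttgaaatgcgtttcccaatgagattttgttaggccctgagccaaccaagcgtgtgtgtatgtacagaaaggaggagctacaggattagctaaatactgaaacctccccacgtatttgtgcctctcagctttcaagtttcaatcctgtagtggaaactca
Clec2g promoter: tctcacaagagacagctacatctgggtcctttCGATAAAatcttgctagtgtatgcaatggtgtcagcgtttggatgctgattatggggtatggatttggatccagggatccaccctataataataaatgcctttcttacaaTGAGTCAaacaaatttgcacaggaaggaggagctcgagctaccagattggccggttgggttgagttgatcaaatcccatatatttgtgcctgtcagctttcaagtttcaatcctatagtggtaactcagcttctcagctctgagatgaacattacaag

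The promoters of Clec2h and Clec2e were 79.6% identical over their whole length, and the best local alignment held 231 identical bases in 251 columns (92.0%). For every other pair among the 5 promoters in the RefSeq table used here, whole-length identity was between 47.4% and 51.5%. Clec2d and Clec2g shared a shorter stretch next to the start, with 49 identical bases in 54 columns (90.7%), covering bases 247 to 300 of the Clec2d run and 217 to 270 of the Clec2g run. A peak covered the start of Clec2h and of Clec2d, whereas no peak covered the start of Clec2e or Clec2g. Of the 50-base windows of the promoter, 68.1% occurred once in the genome for Clec2h, 71.3% for Clec2e, 83.3% for Clec2g and 100% for Clec2d. These shares count single 50-base windows, while the reads were paired, and their part in whether a peak covers a start was not tested.

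Motif letters were searched on both strands, with TGANTCA for AP-1, AGATAA for GATA factors, TTTATNG for CDX2, CAAAGTC for HNF4 and, for IRF factors, GAAA and GAAA with 2 bases between them. Positions count from 1 at the 5′ end of each printed run. The Clec2h promoter held AP-1 letters at positions 168 and 278 and CDX2 letters at 46. The Clec2e promoter held AP-1 letters at 149 and CDX2 letters at 31, and the Clec2g promoter held them at 143 and 33. The Clec2d promoter held only IRF letters, at position 62, and the Clec2i promoter held none of the 5 motifs. Among 32544 promoters of this length, 7.79% held the AP-1 letters, 10.8% the CDX2 letters and 3.45% the IRF letters. These matches are descriptions of sequence and not evidence of binding.

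The centres of the first and second Clec2g peaks are shown because these peaks had the highest KO minus WT values of the 15. They are 300 bases each on the plus strand of GRCm38.p6, at chr6:128936026-128936325 and chr6:128941876-128942175, with motif matches in capitals as above.
First Clec2g peak: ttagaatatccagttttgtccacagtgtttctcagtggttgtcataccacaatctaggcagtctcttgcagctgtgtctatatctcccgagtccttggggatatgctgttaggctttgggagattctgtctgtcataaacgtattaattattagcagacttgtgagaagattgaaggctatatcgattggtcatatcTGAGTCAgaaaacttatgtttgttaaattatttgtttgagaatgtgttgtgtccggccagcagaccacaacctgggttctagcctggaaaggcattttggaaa
Second Clec2g peak: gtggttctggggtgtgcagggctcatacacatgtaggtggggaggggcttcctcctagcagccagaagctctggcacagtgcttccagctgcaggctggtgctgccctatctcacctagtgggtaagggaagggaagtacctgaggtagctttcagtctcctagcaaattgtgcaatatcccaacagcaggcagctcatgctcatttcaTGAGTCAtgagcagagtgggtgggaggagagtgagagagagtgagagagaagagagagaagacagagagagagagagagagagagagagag
Both centres held 1 AP-1 match with the same letters, TGAGTCA, at position 198 in the first and at 210 in the second. AP-1 letters were present in 11.6% of the 300-base centres of all 123510 peaks. The second centre ends in a run of alternating g and a. The third Clec2g peak held HNF4 letters at position 108 of its 300 bases, as did 6.37% of all peak centres with a match anywhere.

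Depth differed between libraries. The WT libraries held 6180717 to 16301164 reads in peaks and the KO libraries 4339306 to 7721797, with KO3 the shallowest. Values are normalised read counts on the log2 scale, in which 1 read counts as 1.00 in WT3, the largest library, and as 3.99 in KO3. The median over all peaks was 5.63 to 5.93 in WT and 5.69 to 5.90 in KO. Within each group it was lowest in WT2 and KO2 and highest in WT3 and KO3. A peak was called at a limma adjusted p below 0.05 over all 123510 peaks, and 0 peaks (0.00%) were called, while 2821 had an unadjusted p below 0.05. Accordingly, 0 of the 15 Clec2 peaks were called. These counts belong to the limma fit. With edgeR the authors reported sites of changed accessibility, mostly increased in KO, and they name Clec2g among the genes with increased accessibility. All KO values lay above all WT values at 2.70% of all peaks and below them at 4.10%. Of the Clec2 peaks, 2 had all KO values above all WT values, 0 had them below, and 13 overlapped. Since the rule used this contrast, nothing is read from these shares.

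The tissue was checked against markers before the genes were compared. Peaks were named for 5 of 7 epithelial markers (Cdh1, Krt8, Krt19, Cdx1 and Cdx2) and for 4 of 5 crypt stem cell markers (Lgr5, Olfm4, Axin2 and Smoc2). No peak among those analysed carried the name of Epcam, Vil1 or Ascl2. Only 61914 of the 123510 peaks carried a name, and unnamed peaks were not searched for listed genes. The counts of markers with a named peak therefore do not measure cell content. The summed level of the epithelial list, as log2 normalised reads per kb of peak, was 7.30 to 7.78 in WT and 7.24 to 7.99 in KO. Of 10 T and NK lymphocyte markers, 4 had a peak of their name (Ptprc, Cd3g, Prf1 and Il2rb), whereas no peak was named after Cd3e, Cd8a, Ncr1, Nkg7, Klrd1 or Gzmb. The summed level of the 4 was 6.29 to 6.30 in WT and 6.19 to 6.49 in KO, so the KO libraries lay on both sides of the WT libraries. For B cells (1 of 3 markers with a named peak), myeloid cells (3 of 4), stroma (4 of 4) and endothelium (3 of 3) the ranges of the groups also overlapped.

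Levels of the 4 genes in WT fell into a strong pair and a weaker pair. The level of a gene is given as the log2 of its summed normalised reads per kb of peak. It is a density over the named peaks and not a total, so the percentiles below rank genes by density. Clec2h had a WT level of 8.00 ± 0.417 and Clec2d of 7.94 ± 0.435 (SD, n = 3 each), at the 91.4 and 90.1 percentiles of the 18004 genes with a named peak. Clec2e followed at 6.88 ± 0.375 (46.3 percentile) and Clec2g at 6.19 ± 0.227 (6.92 percentile). Clec2h and Clec2d differed by less than their spread and overlapped over the WT libraries. Clec2e lay below Clec2h and Clec2d without overlap, and Clec2g lay below Clec2e without overlap, at 6.01 to 6.45 against 6.47 to 7.21.

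**Figure D1:**
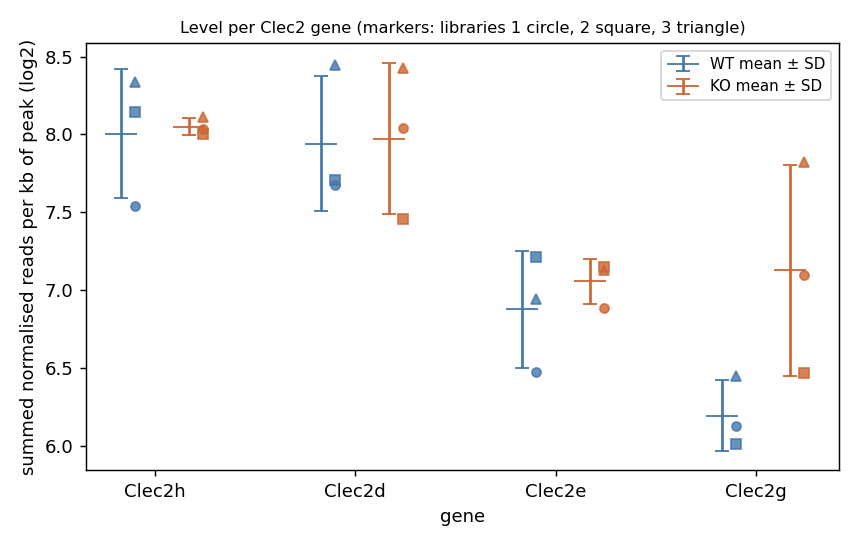
Level of each Clec2 gene that has a named peak, as log2 of summed normalised reads per kb of peak (vertical axis), by gene (horizontal axis). Bars are mean ± SD of 3 WT (blue) or 3 KO (orange) libraries and markers are single libraries. Groups overlap for Clec2h, Clec2d and Clec2e, while the KO libraries of Clec2g lie at 6.47 to 7.82 above the WT libraries at 6.01 to 6.45.

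In KO, Clec2h and Clec2d had nearly the levels of WT. Clec2h was at 8.05 ± 0.0531 and Clec2d at 7.97 ± 0.487, so that KO minus WT was 0.04 and 0.03, below the spread between libraries. For Clec2e the KO level was 7.05 ± 0.147, a difference of 0.18 with overlapping groups. Clec2g had 6.12, 6.01 and 6.45 in WT1 to WT3 and 7.10, 6.47 and 7.82 in KO1 to KO3. Its KO mean was 7.13 ± 0.678 and the difference was 0.93, the highest of the 4 genes, as known when the family was chosen. KO2 lay just above the highest WT library, by less than the spread within either group, and KO3 was highest. Without KO3 the Clec2g difference was 0.59 and without KO2 it was 1.27. With its higher KO level, Clec2g was close to Clec2e, and the KO libraries of the pair overlapped.

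Clec2h was represented by a single peak of 2400 bp (128660851 to 128663250) that covered the gene start and a coding exon. Its normalised read count (log2) was 8.80, 9.41 and 9.60 in WT1 to WT3 and 9.30, 9.27 and 9.37 in KO1 to KO3. All KO libraries lay inside the WT range, on 166 to 775 reads per library. Per kb it was stronger in WT than 96.8% of all peaks. Of its 50-base windows, 95.9% occurred once in the genome.

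For Clec2d, the start of the gene and a coding exon were covered by 1 peak (129180151 to 129181350), which had values of 8.25, 8.28 and 9.06 in WT and 8.66, 8.03 and 9.05 in KO. WT3 and KO3 were nearly equal and the groups overlapped, with KO minus WT at 0.05 and a WT level per kb above that of 98.2% of all peaks. The other peak, in intergenic sequence 3367 bp beyond the end of the gene (129189901 to 129190350), was weak, at 5.06, 5.05 and 5.36 in WT and 4.93, 4.84 and 5.17 in KO. This peak rested on 9 to 41 reads per library, and its difference of -0.18 did not separate the groups. The start peak carried over 10 times as many reads as the distal one in either group, with 857 against 76 in WT and 500 against 43 in KO.

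Clec2e had 3 peaks, over the 3′ end of the gene, inside it and before its start. At the 3′ end (129090301 to 129092700, over exon sequence that is not coding) values were 7.63, 8.07 and 7.92 in WT and 8.17, 8.46 and 8.17 in KO. Every KO library lay above every WT library, by 0.10 between the nearest, and KO minus WT was 0.39 (7.87 ± 0.222 against 8.27 ± 0.170). The groups overlapped at this peak after centring on the median, scaling by trimmed means (TMM), quantile normalization or voom. Repeat-masked sequence made up 40.8% of this peak, against a median of 16.4% over all peaks.

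Inside the gene, the peak over a coding exon (129096901 to 129099000) had 7.51, 8.48 and 7.95 in WT and 7.88, 8.10 and 8.04 in KO. All KO libraries fell within the WT range and the difference was 0.03. The peak before the start (129102601 to 129103650, 1688 bp from it, intergenic) had 6.81, 7.63 and 7.59 in WT and 7.05, 7.33 and 7.83 in KO, again overlapping, with a difference of 0.06. Thus the higher KO values of Clec2e stood at its 3′ end, and the other two peaks had differences near 0.

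The 3 Clec2g peaks lay in introns of a gene 50327 bp long, at 1270, 7420 and 27370 bp from its start. The first (128935651 to 128936700) had values of 6.33, 5.74 and 6.89 in WT and 7.37, 6.35 and 7.95 in KO. WT3 exceeded KO2, so the groups overlapped, and KO minus WT was 0.90 (6.32 ± 0.579 against 7.23 ± 0.809). By voom the groups did not overlap at this peak. Only 61.1% of its 50-base windows occurred once in the genome and 47.2% of it was repeat-masked, the lowest and the highest share among the 15 peaks. The part of this in the KO minus WT value was not tested.

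The second Clec2g peak (128941801 to 128942250, 450 bp) had the highest KO minus WT of the family. Values were 4.14, 4.88 and 4.17 in WT and 5.82, 5.56 and 6.95 in KO, so that every KO library lay above every WT library and KO3 was highest. The means were 4.40 ± 0.417 and 6.11 ± 0.737, a difference of 1.72, which became 1.30 without KO3 and 1.99 without KO2. In reads, the peak held 9, 16 and 18 in WT and 26, 33 and 31 in KO. Per 1000000 reads in peaks of the same library, these were 1.27, 2.59 and 1.10 in WT and 4.15, 4.27 and 7.14 in KO, so that WT2 and KO3 stood apart from the others of their group. Duplicate reads had been removed by the authors, but counts this low carry counting error beside the spread between libraries.

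The second Clec2g peak was weak in WT, with a level per kb at the 0.0227 percentile of all peaks. At or below its WT level there were 28 peaks, counting this one, and KO had the higher mean at all 28, with a median KO minus WT of 1.60 and a range from 0.54 to 2.47. It was among the 13 of these 28 with a difference at least as large as its own. A region with few WT reads could have entered the peak set through its KO reads, so nothing is read from the direction of these 28. The part of this selection in the differences was not tested. Over all peaks the median was -0.02, and 198 peaks (0.160%) had a difference over 1.

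The third Clec2g peak (128961751 to 128962050) overlapped an intron of both Clec2g and Gm15987. Its values were 4.78, 5.05 and 4.32 in WT and 4.58, 4.91 and 5.17 in KO. KO3 was the highest library and WT3 the lowest, and the other 4 libraries overlapped, on 9 to 21 reads per library, and the difference was 0.17. The higher KO level of Clec2g therefore came from its first and second peaks.

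**Figure D2:**
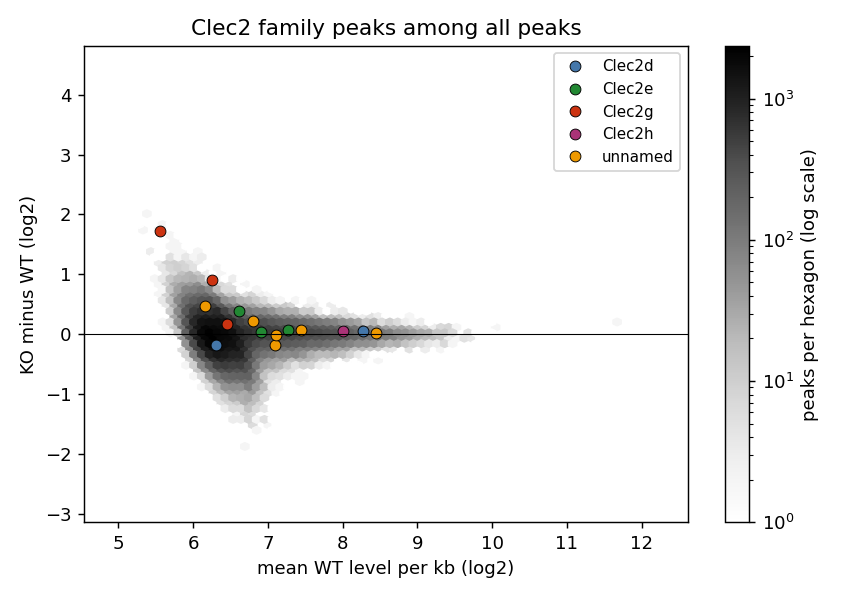
KO minus WT (log2, vertical axis) against the mean WT level per kb (log2, horizontal axis), for all 123510 peaks in grey (hexagons shaded by number of peaks, log scale) and the 15 Clec2 family peaks in colour by gene. The second Clec2g peak, at 5.55 and 1.72, sits at the left edge, where all peaks have positive differences, and WT values enter both axes.

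**Figure D3:**
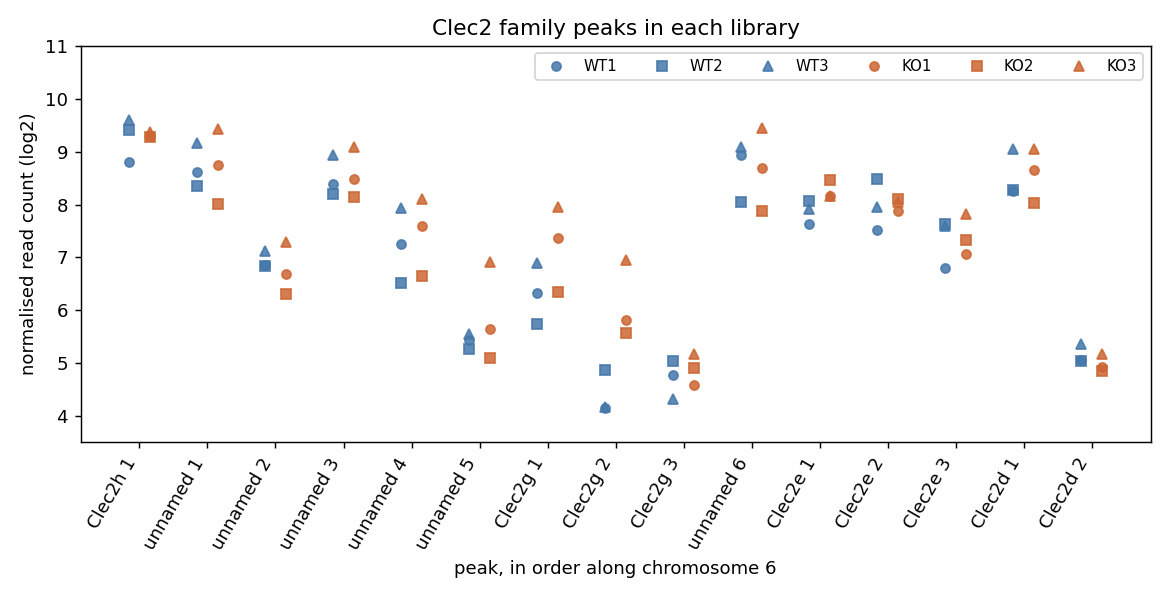
Normalised read count (log2, vertical axis) of the 15 Clec2 family peaks in order along chromosome 6 (horizontal axis), for 3 WT libraries (blue) and 3 KO libraries (orange), with circles, squares and triangles for libraries 1, 2 and 3. All KO markers lie above all WT markers only at the second Clec2g peak and the first Clec2e peak.

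Clec2i and Clec2f had no peak of their name. The peak nearest to the start of Clec2i was 17.3 kb away and named after BC035044, and 100% of the 50-base windows of its promoter occurred once in the genome. For Clec2f, which GENCODE lists as a transcribed pseudogene and RefSeq as protein coding, an unnamed peak (129010051 to 129011250) lay 2.86 kb from the GENCODE start and inside the RefSeq gene. It lies just outside the window of the rule. Its values were 6.33, 6.16 and 6.66 in WT and 6.68, 6.19 and 7.32 in KO, with overlapping groups and a difference of 0.35. On the other side, the last unnamed peak before the window (128798101 to 128800200) had 7.51, 7.54 and 8.08 in WT and 8.03, 7.65 and 8.70 in KO, a difference of 0.42. Just inside, the first and last unnamed peaks of the window had differences of 0.02 and -0.02.

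The 6 unnamed peaks of the window held 21 to 574 reads per library. They included 1 in an intron of Gm44511, 4 in intergenic sequence and 1 in an intron of BC064078, and none lay within 5 kb of a Clec2 gene. Their KO minus WT values ranged from -0.18 to 0.47 with a median of 0.04, and WT and KO overlapped at all 6. The value of 0.47 belonged to the peak 16131 bp before the start of Clec2g (128917651 to 128918250), with 5.43, 5.27 and 5.55 in WT and 5.65, 5.10 and 6.90 in KO. There, KO3 alone stood apart and KO2 was the lowest of the 6 libraries. The strongest peak per kb of all 15 was unnamed, that in Gm44511 (128802451 to 128803650), at the 98.9 percentile of all peaks in WT and with a difference of 0.02.

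Over the 15 peaks the median KO minus WT was 0.06, and KO had the higher mean at 12, against 46.9% of all peaks. KO3 was the highest library at 10 of the 15, and at 35.8% of all peaks. WT2 or KO2 was the lowest at 9 of the 15, and at 56.4% of all peaks. The part of these library levels in the differences was not tested. The wider locus of 650 kb held 45 peaks with a median KO minus WT of 0.12, and the 30 peaks outside the set of 15 had a median of 0.18. KO was above WT without overlap at 4 of the 45 and below at 0, against 2.70% and 4.10% of all peaks, the other two of the 4 being in an intron of Klrb1 (difference 0.32) and in an unnamed intergenic peak (129066901 to 129067500, difference 0.44). Only the second Clec2g peak exceeded 1. The 30 peaks included 2 that the authors had named after Clec2j. One was intergenic (128649901 to 128650650), with 6.22, 6.86 and 6.83 in WT and 6.65, 6.95 and 6.90 in KO, and the other lay in an intron of Clec2j (128652901 to 128653800), with 6.62, 6.37 and 7.00 in WT and 6.68, 6.13 and 7.00 in KO. Groups overlapped at both, with differences of 0.20 and -0.06.

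**Figure D4:**
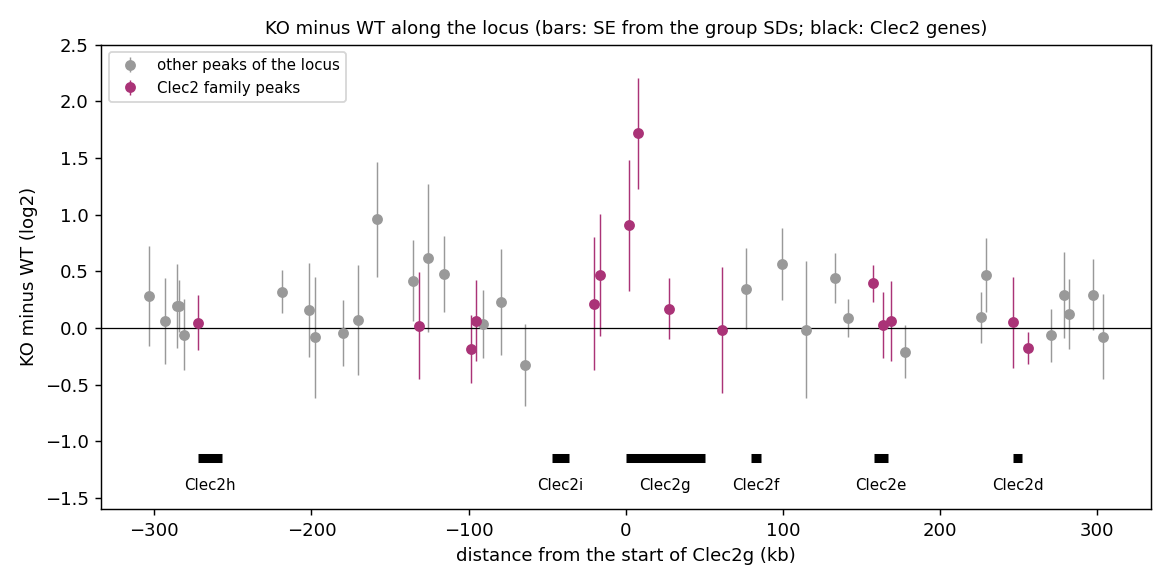
KO minus WT (log2, vertical axis) of the 45 peaks of the locus by distance from the start of Clec2g in kb (horizontal axis), with Clec2 family peaks in purple, other peaks in grey and the 6 Clec2 genes as black bars. Vertical bars are the SE of the difference from the group SDs (n = 3 each). The first and second Clec2g peaks stand at 0.90 and 1.72, and most other peaks lie within 0.5 of 0.

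Genes for the partners of the Clec2 proteins were examined next. Of 19 NK receptor genes and neighbours, 13 had peaks of their name, 25 in all, and 0 of the 25 were called in either direction. The median KO minus WT over these peaks was -0.15, with the higher mean in KO at 10. The strongest in WT per kb was Klrc1, which encodes the inhibitory receptor NKG2A, at 7.98 ± 0.682 in WT and 7.63 ± 0.980 in KO. Klrb1f, the gene for the receptor that binds Clec2i, followed at 6.90 ± 0.495 and 6.89 ± 0.926, and Klrg2 at 6.85 ± 0.316 and 7.10 ± 0.246. In all 3, the groups overlapped. The highest difference of the list was that of Klrb1c, an activating receptor of the NKR-P1 group, whose single peak had levels per kb of 5.80, 5.94 and 6.71 in WT and 7.29, 6.30 and 7.73 in KO on 17 to 63 reads. Its difference of 0.96 was close to the 0.93 of Clec2g, from the start of which the peak lay 158 kb away. WT3 exceeded KO2 there, and KO3 was the highest library, as it was at the first and second Clec2g peaks. No peak carried the name of Klrb1a, Klrb1g, Klrd1, Klrc2, Klrh1 or Cd69.

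Other ligands of NK cell receptors gave 7 of 13 genes with peaks of their name, 24 peaks in all, and again 0 were called. Here the median was 0.11 and KO had the higher mean at 18. The highest difference was that of Ulbp1, whose product binds NKG2D, at 0.44, with levels of 6.15, 6.02 and 6.16 in WT and 6.58, 6.50 and 6.57 in KO, so that all KO libraries lay above all WT libraries. Strongest in WT were Pvr, whose product binds the activating receptor DNAM-1, at 7.20 ± 0.0725 in WT and 7.26 ± 0.359 in KO, Cdh1, the gene of E-cadherin and a ligand of KLRG1, at 7.10 ± 0.243 and 7.25 ± 0.317, and H60b, another NKG2D ligand, at 6.67 ± 0.228 and 6.72 ± 0.430. All 3 lay below the WT levels of Clec2h and Clec2d. These levels are densities per kb of peak and not totals. Cdh1 held 808 to 2690 reads per library over 10 peaks, against 166 to 775 over 1 for Clec2h and 142 to 574 over 2 for Clec2d. Pvr held 169 to 510 over 3 and H60b 97 to 306 over 6.

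Genes whose level varied over the 6 libraries most like that of Clec2g were Traf4, a signalling adaptor (Pearson r = 0.998), Treh, the trehalase of the brush border (0.988) and Sgsm2 (0.987), among 14822 genes with a mean of at least 50 reads per library. Clec2h was most like Sap18 (0.985), Slc5a1, the glucose transporter of the brush border (0.976) and Wdr81 (0.969). The 6 points share their libraries and scaling, and r exceeded 0.9 for 205 genes with Clec2g and for 84 with Clec2h. The differences of Traf4, Treh and Sgsm2 were 0.23, 0.22 and 0.14, well below that of Clec2g.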

How the data were processed

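ATAC-seq was performed on crypt nuclei, with paired reads of 50 bp. The authors trimmed reads with Trim Galore (0.4.1), mapped them to GRCm38 with Bowtie2 (2.2.5) and, in SeqMonk, removed duplicates and called MACS peaks as 1 set for the series. Which libraries were pooled for peak calling is not given in the sources used here. The values the authors deposited are log2 read counts scaled to the largest library, and a second table of their edgeR comparison was not used. The authors named peaks by the closest gene up to 5 kb away, but some peaks within genes of the annotation used here carry no name. On the linear scale 100% of values were whole multiples of 1 read or lay below 1 read, the latter taken as no read. The tolerance was 0.02 read at low counts and widened with the count. This gave reads per library.

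Because the unit is log2, limma (3.58.1, R 4.3.3; lmFit and eBayes with trend, two-sided, Benjamini-Hochberg over 123510 peaks) took the place of the authors' edgeR, with no filter, pseudocount or block. It was run on simulated counts with changes larger than any Clec2 difference described here. That run therefore does not tell the power of the fit for these differences. The members and gene lists were chosen with earlier results of these data known. All peaks named after the 6 genes are given, unnamed peaks singly where KO minus WT exceeded 1 without overlap or within 5 kb of a Clec2 gene, and otherwise by range. Unnamed peaks singled out beyond that were chosen after their values were seen. From each list the strongest 3 in WT are named when none is called, and 3 genes of highest Pearson r for likeness. Further genes with values were also chosen after their values were seen. Annotation was GENCODE vM21, and promoters came from RefSeq (5 of 6 genes matched). Alternatives were other scalings, voom on recovered reads, a minimum of 10 reads, a pseudocount of 5, the replicate block and each library left out. For the gene levels they were also the mean of the log2 values of the peaks, and all peaks within 5 kb of the annotated gene.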

Additional observations from a re-analysis of the deposited data

How the results depend on the processing

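KO minus WT of the 4 genes moved by less than 1 SD (the root mean square of the WT and KO SDs, 0.506 for Clec2g and 0.297 for Clec2h) under all 15 alternatives each, though for Clec2g by more than its WT SD of 0.227 without KO2 or KO3. It ranged from 0.59 to 1.27 for Clec2g, from -0.02 to 0.35 for Clec2e, from -0.19 to 0.29 for Clec2d and from -0.19 to 0.21 for Clec2h, so the sign of the last 3 depends on the library left out. For Clec2d the sign also changed, to -0.06, with the mean of the log2 values of its peaks. The replicate block, the minimum of 10 reads and the peaks within 5 kb of the gene changed neither the levels nor the peaks used. These alternatives therefore could not move the gene values. Calls over all peaks, 0 as reported, were 2 with centring on the median or scaling by trimmed means (TMM), 3 after quantile normalization or by voom, 0 to 30 with each library left out (30 without KO2, 1 without WT3) and 272 with the replicate block. Calls among the 15 Clec2 peaks were 0 except for 2 with the replicate block (the first and second Clec2g peaks) and 0 to 1 with each library left out (the second Clec2g peak without KO2). Same-numbered libraries correlated in their deviations from the group mean at 0.04, 0.42 and 0.41 for numbers 1, 2 and 3. Different numbers gave -0.35 for WT2 with KO3, -0.46 for WT3 with KO2, and -0.07 to 0.04 for the other pairs, with WT1 and KO3 at 0.04. The labels do not tie same-numbered libraries, so the main fit had no block. Whether libraries of numbers 2 and 3 share a batch was not tested, and the calls depend on this choice. Clec2 peaks without overlap of the groups numbered 2 as reported, 1 with centring, TMM or quantile normalization (the Clec2e peak is lost), and 2 to 4 with each library left out (4 without KO2 and without KO3). By voom they also numbered 2, but these were the first and second Clec2g peaks, with the Clec2e peak lost. The minimum of 10 reads removed no peak. Weak peaks, at 9 to 33 reads per library, limit what depth can show at the 2 Clec2g peaks farthest from the gene start. Groups of 3 libraries were too small for a check on outlying samples.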
